A study of Mus musculus with 4 samples.

Results

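The SLAM family receptors and their adapter were followed in mouse CD4+ T cells at the start of induced regulatory T (iTreg) cell differentiation. The set holds 7 receptor genes, Slamf1, Slamf6, Slamf7, Ly9, Cd48, Cd84 and Cd244, and Sh2d1a, the gene of the adapter SAP. Members were taken as every probe that the array files name after one of these genes, which gave 8 of 37074 gene names and 20 of 56605 probes. The rule uses gene names and no measured value.

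The study asked how the nuclear receptors Nr4a1, Nr4a2 and Nr4a3 act in iTreg differentiation. Transcripts were measured on 4 single-colour arrays, 1 array for each group. The naive T group of each genotype held CD4+ cells sorted from spleen and lymph nodes as CD25 low, CD44 low, CD62L high and Foxp3-. The iTreg 3 h group of each genotype held such cells after 3 h on plate-bound anti-CD3 at 2 μg/ml and anti-CD28 at 0.5 μg/ml, with IL-2 at 10 ng/ml, TGF-β1 at 0.2 or 0.5 ng/ml, and antibodies to IFN-γ and IL-4 at 1 μg/ml each. Nr4a-TKO cells carried floxed Nr4a1, floxed Nr4a2 and Nr4a3-/- alleles, with the Cre driver not given in the sources used here, and came from irradiated Rag2-/- recipients of marrow of both kinds, in which the WT donor cells carried Ly5.1 and the Nr4a-TKO donor cells Ly5.2. WT cells came from Rag2-/- recipients of WT marrow alone, so genotype and the kind of chimera cannot be told apart. Cells were sorted 6 weeks after transplantation, the mice were C57BL/6J and listed as 6 to 8 weeks old, and the Foxp3 hCD2-hCD52-KI reporter background is stated for the Nr4a-TKO marrow. How many animals stood behind an array is not given.

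SLAM family receptors are immunoglobulin-type proteins on blood cells that mostly bind themselves on a neighbouring cell, while Cd244 (2B4) binds Cd48. Most of them carry tyrosine-based switch motifs in their tails. SAP, a small protein made of little more than an SH2 domain, docks on these motifs and brings in the kinase Fyn, which leads on to PKC-θ, Bcl10 and NF-κB. In T cells the family is known for setting cytokine output, for the contact between T follicular helper cells and B cells, and for the development of NKT cells, and loss of SAP in humans causes X-linked lymphoproliferative disease.

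The array reads each transcript with a probe of 60 bases, and 4 of the probes are shown, 3 because they lie across a splice junction and so read the spliced message, and 1 because it lies in the coding part of its gene. Coordinates are on mm9, the build of the array files. The Slamf1 probe A_52_P158959 (chr1:173718133-173722451) and the Slamf6 probe A_52_P45563 (chr1:173866817-173868145) span an intron, as does the Cd244 probe A_52_P541344 (chr1:173507474-173508000). The Sh2d1a probe A_55_P2745462 (chrX:39873846-39873905) lies within 1 stretch. In the Cd244 probe, capitals mark 18 bases that have the codon pattern of a switch motif in the 1 reading frame without a stop codon.
Slamf1 A_52_P158959: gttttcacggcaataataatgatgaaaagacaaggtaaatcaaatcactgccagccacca
Slamf6 A_52_P45563: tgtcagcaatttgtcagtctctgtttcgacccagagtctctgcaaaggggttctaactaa
Cd244 A_52_P541344: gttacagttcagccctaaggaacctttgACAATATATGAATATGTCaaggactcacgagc
Sh2d1a A_55_P2745462: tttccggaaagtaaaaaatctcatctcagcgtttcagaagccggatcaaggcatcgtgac

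Values below are log2 normalized intensities. They compare one probe between arrays and are not used to rank genes by abundance. With 1 array a group there was no spread between replicates and no test, so every difference has no replicate check. As a yardstick within an array, the SD between repeated spots of 1 probe had a median of 0.12, which gives a difference between arrays a spot SD of 0.17. Differences are called beyond the spot spread past 2 such SDs, 0.45 for probes below a log2 value of 6, 0.33 from 6 to 9 and 0.34 above. This yardstick leaves out variation between animals, sorts, cultures and hybridisations. A gene is represented by its brightest probe, and a change of more than 2-fold is counted. Of the 20 probes, 17 were well above background on all 4 arrays, and each of the 8 genes had at least 1 such probe. All probes are shown in the plot of levels by array.

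**Figure D1:**
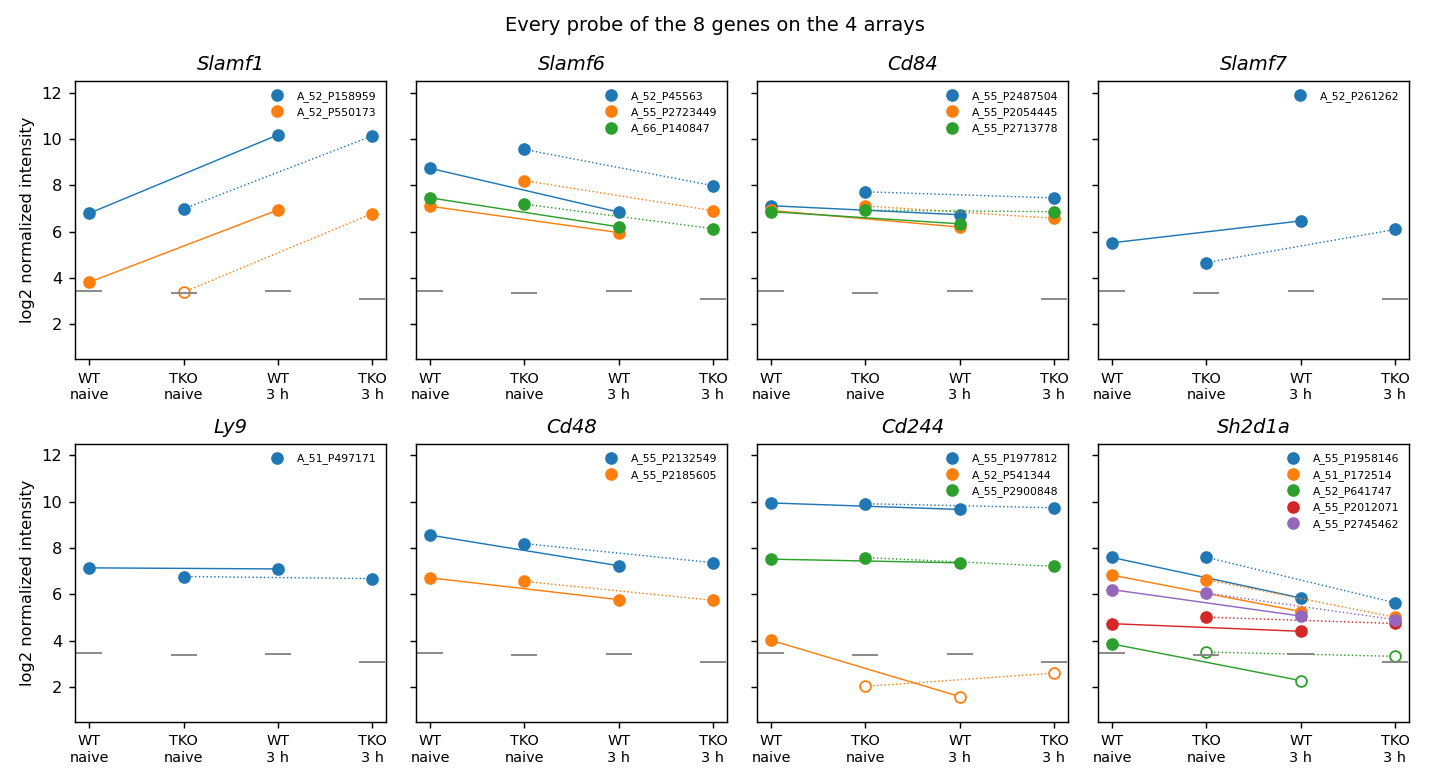
Log2 normalized intensity (y axis) of each of the 20 probes on the 4 arrays (x axis, WT and TKO for the labels WT and Nr4a-TKO), in a panel for each gene. Lines join naive T to iTreg 3 h (solid for WT, dotted for Nr4a-TKO), open points were not well above background, and grey bars are each array's floor. Both Slamf1 probes rise in each genotype, those of Slamf6 fall, and that of Ly9 hardly moves.

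Slamf1 rose within 3 h in both genotypes, 10.4-fold in WT and 8.85-fold in Nr4a-TKO cells, while Slamf6, Cd48 and Sh2d1a fell in WT cells. In WT cells 1 gene of the set was more than 2-fold higher at 3 h and 3 were lower, where 8.25% of the 26541 genes compared were higher and 8.25% were lower. On the arrays labelled Nr4a-TKO, 2 genes (Slamf1 and Slamf7) were higher and 2 (Slamf6 and Sh2d1a) lower, against 7.61% and 7.65% of 27087 genes. Counted by probe, 2 of 20 were higher and 7 lower in WT cells, where 9.29% of 39310 probes were higher and 8.5% lower. In Nr4a-TKO cells 3 of 18 were higher and 6 lower, where 8.26% of 40160 probes were higher and 7.96% lower. The lower probes belonged to Slamf6, Sh2d1a and, in WT cells, Cd48. Probes of the same gene are repeated readings on the same arrays and not independent members. The median change over the 8 genes was -0.34 in WT and -0.22 in Nr4a-TKO cells on the log2 scale, beside medians of -0.05 and -0.02 over all genes. Each of the 18 probes with a difference in both genotypes had the same sign in both, except that the bright Cd244 probe, with changes near 0, differed in sign with the deposited values and with scaling to the 75th percentile. No gene's change differed by more than 2-fold between the genotypes, and over the probes the Nr4a-TKO change minus the WT change lay between -0.24 and 0.50.

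**Figure D2:**
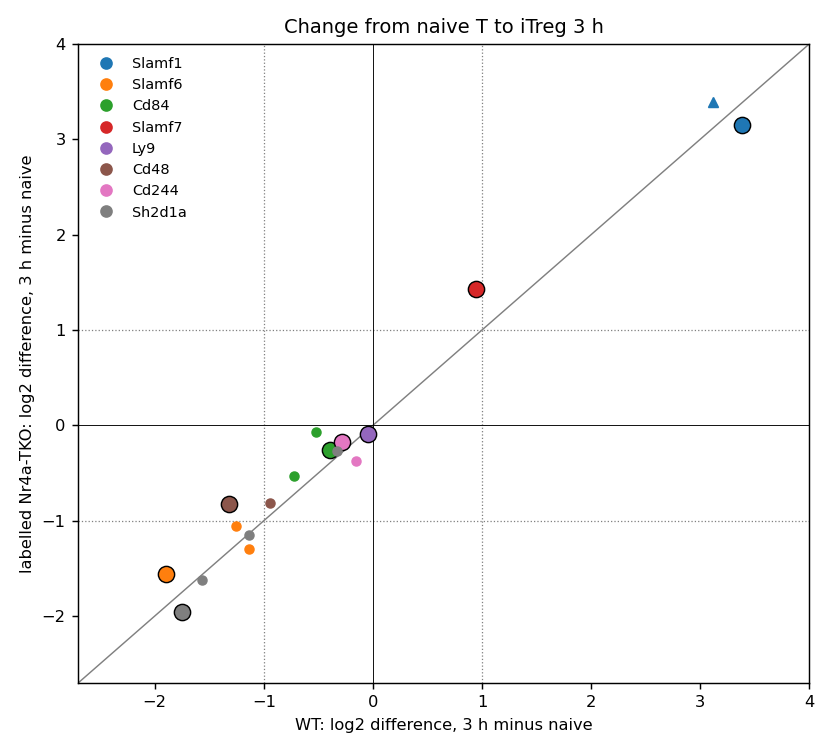
Log2 difference, iTreg 3 h minus naive T, in WT (x axis) and on the arrays labelled Nr4a-TKO (y axis) for 18 probes. Colours are genes, large outlined points are the probe that represents the gene, the triangle is a lower bound, dotted lines mark 2-fold and the diagonal marks equal changes. The 2 Slamf1 probes stand at 3.38 and 3.12 on the x axis, and points lie near the diagonal.

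Slamf1 (CD150, SLAM) is a self-binding receptor that is induced when T cells are activated. Its junction probe read 6.79 in WT naive T, 6.98 in Nr4a-TKO naive T, 10.17 in WT iTreg 3 h and 10.13 in Nr4a-TKO iTreg 3 h cells. Both 3 h arrays were high, both naive arrays were low, and within a stage the genotypes lay closer together than the spot spread. The change was 10.4-fold (log2 3.38) in WT and 8.85-fold (log2 3.15) in Nr4a-TKO cells. With an offset of 50 it was log2 2.91 in WT and 2.73 in Nr4a-TKO cells. The second Slamf1 probe, A_52_P550173 at chr1:173730343-173730402, was dim. It read 3.82 in WT naive T, 6.93 in WT iTreg 3 h and 6.78 in Nr4a-TKO iTreg 3 h cells, and was not well above background in Nr4a-TKO naive T cells. Its change was 8.68-fold in WT and at least 10.5-fold in Nr4a-TKO cells. The sizes for this dim probe rest on the background correction, with log2 1.43 and at least 1.40 at an offset of 50.

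Among 22647 genes well above background on all 4 arrays, the 5 whose profile over the 4 arrays lay nearest that of Slamf1, by Euclidean distance of centred log2 values, were Nfkbid (0.13), Gadd45b (0.21), Gfod1 (0.27), Chchd4 (0.29) and Srgn (0.30). Nfkbid encodes a nuclear IκB protein, Gadd45b a stress-response protein, Chchd4 a mitochondrial import protein and Srgn the granule proteoglycan serglycin. Nfkbid rose by 3.54 in WT and 3.06 in Nr4a-TKO cells on the log2 scale. The likeness is a description over 4 arrays. Within the set, Slamf7 lay nearest Slamf1 at 2.22 and Sh2d1a farthest at 5.12.

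Slamf7 (CRACC, CD319), a self-binding receptor known from NK and plasma cells that does not need SAP, was the other receptor that was higher at 3 h. Its 1 probe, A_52_P261262 at chr1:173569299-173569358, read 5.52 in WT naive T, 4.66 in Nr4a-TKO naive T, 6.46 in WT iTreg 3 h and 6.09 in Nr4a-TKO iTreg 3 h cells. The lowest array was Nr4a-TKO naive T, and both 3 h arrays lay above both naive arrays. At 3 h it was 1.92-fold higher in WT, short of the threshold, and 2.69-fold higher in Nr4a-TKO cells. The Nr4a-TKO change was larger by 0.48 on the log2 scale, beside a yardstick of 0.45 for 1 difference at this brightness and a wider one for a difference of 2 changes. Its call in Nr4a-TKO cells as past 2-fold was lost with an offset of 50 (log2 0.65) and without background correction (log2 0.93).

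The promoters of these 2 receptors are printed because their transcripts were higher at 3 h in both genotypes. RefSeq's table for GRCm38.p6 held the promoters of 6 of the 8 genes, with Cd244 listed as Cd244a. Each window of 300 bases, from 250 before the start to 50 after it, was searched on both strands for AAAGGTCA, the response element of Nr4a proteins, AGGAAG, an Ets motif, and TGANTCA, the AP-1 motif. No window of the 6 held AAAGGTCA, which 1.51% of 32851 promoters held. AGGAAG was in 4 of the 6, in those of Slamf1, Slamf7, Cd48 and Cd84, against 35.4% of all promoters, and TGANTCA was in 3, in those of Slamf7, Cd84 and Cd244, against 7.81%. The capitals below mark AGGAAG, beginning 49 bases before the start, in Slamf1 (chr1:171766882-171767131, plus strand), and AGGAAG on the opposite strand, beginning 85 bases before, and TGANTCA, beginning 42 bases before, in Slamf7 (chr1:171649000-171649249, minus strand). The matches are letters in a window, and no binding was measured here.
Slamf1 promoter: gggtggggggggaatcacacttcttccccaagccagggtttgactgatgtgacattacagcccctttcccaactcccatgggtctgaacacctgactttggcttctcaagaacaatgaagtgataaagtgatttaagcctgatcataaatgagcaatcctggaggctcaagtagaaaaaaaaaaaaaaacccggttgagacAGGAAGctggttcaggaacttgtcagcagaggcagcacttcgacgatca
Slamf7 promoter: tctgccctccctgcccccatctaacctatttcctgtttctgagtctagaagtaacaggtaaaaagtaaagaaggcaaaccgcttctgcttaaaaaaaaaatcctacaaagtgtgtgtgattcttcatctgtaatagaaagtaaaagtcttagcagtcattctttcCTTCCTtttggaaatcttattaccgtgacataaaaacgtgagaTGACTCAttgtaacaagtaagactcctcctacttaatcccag

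Slamf6 (Ly108), a self-binding receptor that couples to SAP and that marks less differentiated T cells, fell at 3 h and differed between the genotypes. Its junction probe read 8.73 in WT naive T, 9.55 in Nr4a-TKO naive T, 6.84 in WT iTreg 3 h and 7.98 in Nr4a-TKO iTreg 3 h cells. Both naive arrays lay above both 3 h arrays, and at each stage the array labelled Nr4a-TKO was the higher one. The fall was 3.71-fold in WT and 2.96-fold in Nr4a-TKO cells.

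A second Slamf6 probe of the same RefSeq transcript, A_55_P2723449 at chr1:173873869-173873928, read 7.09 in WT naive T, 8.20 in Nr4a-TKO naive T, 5.96 in WT iTreg 3 h and 6.90 in Nr4a-TKO iTreg 3 h cells. It fell 2.20-fold in WT and 2.46-fold in Nr4a-TKO cells. The third probe, A_66_P140847 at chr1:173883204-173883263, is assigned to another transcript, ENSMUST00000195656. It fell by 2.38-fold and 2.08-fold, but read 7.46 in WT naive T and 7.19 in Nr4a-TKO naive T cells, and 6.21 and 6.13 at 3 h. With an offset of 50 the second probe in WT cells (log2 -0.73) and the third in both genotypes (log2 -0.87 and -0.71) were short of 2-fold. So all 3 probes were lower at 3 h in both genotypes, while only the 2 probes of the RefSeq transcript read higher under the Nr4a-TKO label.

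Between the genotypes, no gene of the set was more than 2-fold apart in naive T cells, where 1.86% of 26411 genes had a signal more than 2-fold higher with the Nr4a-TKO label and 1.72% a lower one. By probe, 1 of 20 was higher and 0 lower, against 1.83% and 1.68% of 38978 probes. The widest difference in naive T cells was that of Slamf7, which was 1.81-fold lower under the Nr4a-TKO label (log2 -0.85, or -0.35 with an offset of 50), and log2 -0.37 at 3 h, within the spot spread. At 3 h, Slamf6 alone was past 2-fold, higher on the array labelled Nr4a-TKO, where 1.7% of 26817 genes were higher and 1.88% lower. By probe, 1 of 18 was higher and 0 lower, against 1.65% and 1.9% of 39600 probes. Its junction probe was 1.76-fold higher in naive T cells (log2 0.82) and 2.21-fold higher at 3 h (log2 1.14). The second probe was 2.15-fold higher in naive T cells (log2 1.11) and 1.93-fold higher at 3 h (log2 0.95), so which stage passed 2-fold depended on the probe. The 3 h call was lost with an offset of 50 (log2 0.88) and with the mean of the 3 probes (log2 0.67). The median difference over the 8 genes was -0.01 in naive T cells and 0.01 at 3 h, beside -0.02 and 0.00 over all genes.

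**Figure D3:**
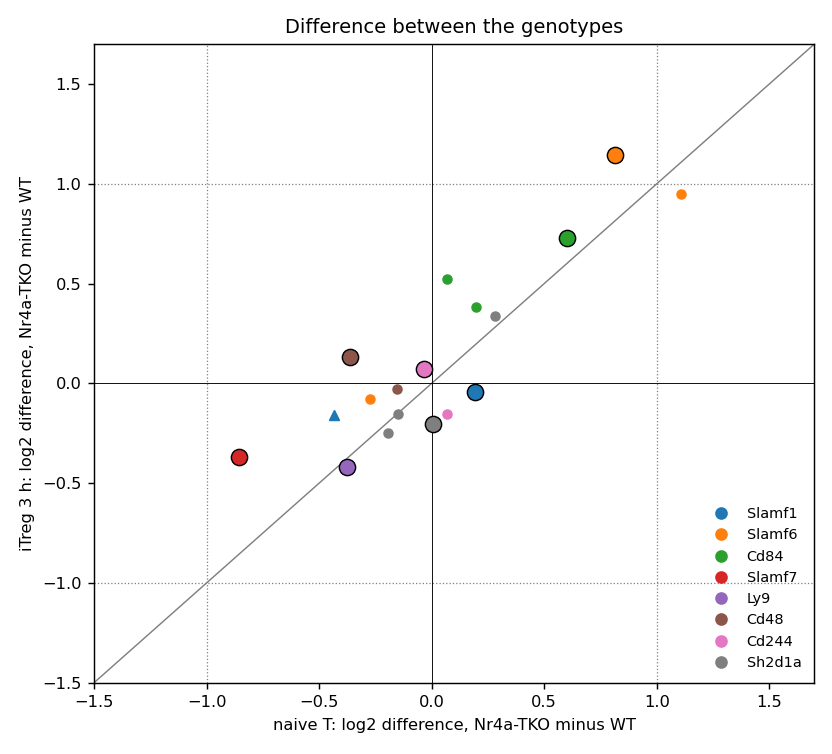
Log2 difference between the genotypes, Nr4a-TKO minus WT, in naive T (x axis) and iTreg 3 h cells (y axis) for 18 probes. Colours are genes, large outlined points are the probe that represents the gene, the triangle is a bound, and dotted lines mark 2-fold. The 2 Slamf6 probes of the RefSeq transcript stand at the upper right, at 0.82 and 1.11 on the x axis, and the third Slamf6 probe lies at -0.27.

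Cd84 (SLAMF5), a self-binding receptor that couples to SAP and supports long contacts of T cells with B cells, was the other gene with higher signal on the arrays labelled Nr4a-TKO, below 2-fold. Its brightest probe, A_55_P2487504 at chr1:173785140-173785199, read 7.12 in WT naive T, 7.72 in Nr4a-TKO naive T, 6.73 in WT iTreg 3 h and 7.46 in Nr4a-TKO iTreg 3 h cells. Both arrays labelled Nr4a-TKO lay above both WT arrays, by 1.52-fold in naive T cells and 1.66-fold at 3 h. This probe is assigned to the transcript NM_001252472. The 2 probes of NM_013489 were higher at 3 h by 1.44-fold (A_55_P2713778) and 1.30-fold (A_55_P2054445), beyond the spot spread, and in naive T cells by 1.05-fold and 1.15-fold, within it. From naive T to 3 h the 3 probes were lower by 1.31 to 1.65-fold in WT and by 1.05 to 1.45-fold in Nr4a-TKO cells.

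B cells also carry Slamf6 and Cd84. Of the 8 genes of the set, 4 read higher under the Nr4a-TKO label at each stage. Ly9 was at log2 -0.37 in naive T cells and -0.42 at 3 h, and Cd48 at -0.36 and 0.13. The cells were sorted as CD4+, and most markers of B cells read higher under the Nr4a-TKO label. All 8 B cell markers were above background on every array, and 6 of 8 in naive T cells and 8 of 8 at 3 h read higher under the Nr4a-TKO label. These counts go by sign alone. Ms4a1 (log2 0.10 in naive T cells and 0.07 at 3 h) and Pax5 (0.08 and 0.11) lay within the spot spread. The largest of these differences was that of the MHC class II gene H2-Aa, at log2 1.61 and 1.34, while Cd79b, of the B cell receptor, was at -0.56 in naive T cells and 0.77 at 3 h. The log2 of the summed marker level was 11.86 in WT naive T, 12.01 in Nr4a-TKO naive T, 11.47 in WT iTreg 3 h and 11.82 in Nr4a-TKO iTreg 3 h cells, and most of it came from the Cd22 probe, which differed by -0.05 and 0.15. The part of B cell RNA in the Slamf6 and Cd84 values was not tested, and in bulk RNA fewer cells of a type and less RNA per cell cannot be told apart.

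Ly9 (CD229, SLAMF3), a self-binding receptor, stayed near 1 level. Its probe, A_51_P497171 at chr1:173518744-173518790, read 7.14 in WT naive T, 6.77 in Nr4a-TKO naive T, 7.10 in WT iTreg 3 h and 6.68 in Nr4a-TKO iTreg 3 h cells. Both WT arrays lay above both Nr4a-TKO arrays, by 1.30-fold and 1.33-fold, beyond the spot spread and below 2-fold. From naive T to 3 h it moved by -0.05 in WT and -0.09 in Nr4a-TKO cells on the log2 scale, within the spot spread.

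Cd48 (SLAMF2), held in the membrane by a lipid anchor, is the ligand of Cd244 and also binds Cd2. Its brighter probe, A_55_P2132549 at chr1:173629721-173629780, read 8.56 in WT naive T, 8.19 in Nr4a-TKO naive T, 7.23 in WT iTreg 3 h and 7.37 in Nr4a-TKO iTreg 3 h cells. Both naive arrays lay above both 3 h arrays, with a 2.50-fold lower level at 3 h in WT and a 1.77-fold lower one in Nr4a-TKO cells, short of the threshold. The second probe, A_55_P2185605 at chr1:173635201-173635260, was 1.92-fold and 1.76-fold lower. Its partner Cd2, an adhesion receptor of T cells, read between 9.48 and 9.91 with a log2 change of 0.12 in the WT pair of arrays and of -0.21 in the Nr4a-TKO pair.

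Cd244 (2B4) is the receptor for Cd48 on NK cells and on some CD8 T cells, and its probes did not give 1 answer. The junction probe printed above, which reads part of the tail, was well above background only in WT naive T cells, at 4.02, so that its log2 difference from that array was -0.59 or lower in WT iTreg 3 h and -0.65 or lower in Nr4a-TKO naive T cells. A probe farther along the same RefSeq transcript, A_55_P1977812 at chr1:173515388-173515447, read between 9.66 and 9.94 on the 4 arrays, with every difference within the spot spread. Another, A_55_P2900848 at chr1:173539819-173539877, is assigned to ENSMUST00000194797 and lies past the Ly9 probe. It read between 7.21 and 7.59. The bright signals under the name Cd244 thus came without clear signal from the junction. Of 8 NK cell markers, 6 or 7 were above background on each array, with a log2 summed level between 9.10 and 9.88 that came mostly from the perforin gene Prf1, and the defining marker Ncr1 was on none. Both CD8 T markers were above background on every array, with a summed level between 6.22 and 7.15. The part of these cells in the Cd244 values was not tested.

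Sh2d1a, on chromosome X, encodes SAP. Its brightest probe, A_55_P1958146 at chrX:39875116-39875175, read 7.59 in WT naive T, 7.60 in Nr4a-TKO naive T, 5.84 in WT iTreg 3 h and 5.64 in Nr4a-TKO iTreg 3 h cells. The naive arrays were high and the 3 h arrays low, with the genotypes within the spot spread at each stage, and the fall was 3.36-fold in WT and 3.88-fold in Nr4a-TKO cells. The probe A_51_P172514 at chrX:39874920-39874979 fell 2.97-fold and 3.08-fold, and the coding probe printed above fell 2.20-fold in WT and 2.21-fold in Nr4a-TKO cells. These 3 probes read NM_011364. With an offset of 50, the brightest probe kept a fall past 2-fold (log2 -1.18 and -1.29), while A_51_P172514 (log2 -0.89 and -0.86) and the coding probe (log2 -0.57 and -0.54) did not. The probe of another transcript, A_55_P2012071 on ENSMUST00000101619, was lower by only 1.26-fold and 1.21-fold, within the spot spread, and A_52_P641747, assigned to the cDNA AK042476, was above background only in WT naive T cells.

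The other SLAM family genes on the array were mostly at background. Slamf9 and the SAP-related adapters Sh2d1b1 and Sh2d1b2 (EAT-2 and ERT), which act in NK cells, were not well above background on any array, and Slamf8 only in Nr4a-TKO naive T cells. All 15 genes of a list of signalling proteins downstream of the receptors were measured. In WT cells 2 of the 15 were more than 2-fold higher at 3 h, Nfkb1 (log2 2.42), which encodes an NF-κB subunit, and Fyn (log2 1.06), the kinase that SAP brings in. Only Dok2, an adapter that restrains Ras signalling, was lower (log2 -1.25). In Nr4a-TKO cells Nfkb1 was higher (log2 2.31) and Prkcq, which encodes PKC-θ, was lower (log2 -1.62). These counts of 1 or 2 of 15 are near the shares over all genes, 8.25% in each direction in WT and 7.61% and 7.65% in Nr4a-TKO cells. The list's median change was -0.37 in WT and -0.44 in Nr4a-TKO cells on the log2 scale.

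No gene of the signalling list differed more than 2-fold between the genotypes at either stage, where between 1.7% and 1.88% of all genes did in each direction. The nearest was Prkcq, which read 9.56 in WT naive T, 9.42 in Nr4a-TKO naive T, 8.77 in WT iTreg 3 h and 7.80 in Nr4a-TKO iTreg 3 h cells. At 3 h its 3 probes all read lower under the Nr4a-TKO label, with log2 differences of -0.88, -0.96 and -0.96. Fyn, with 1 probe, read 6.81, 7.14, 7.87 and 7.38 in the same order of groups, so that its log2 change was 1.06 in WT and 0.23 in Nr4a-TKO cells. This difference between the changes was not tested. Csk, the kinase that holds back Src family kinases, had log2 changes of -0.96 and -0.94, and the kinase Lck of -0.71 and -0.62, all short of the threshold. A second Csk probe, A_52_P397204, had log2 changes of -1.10 and -1.27, past it.

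**Figure D4:**
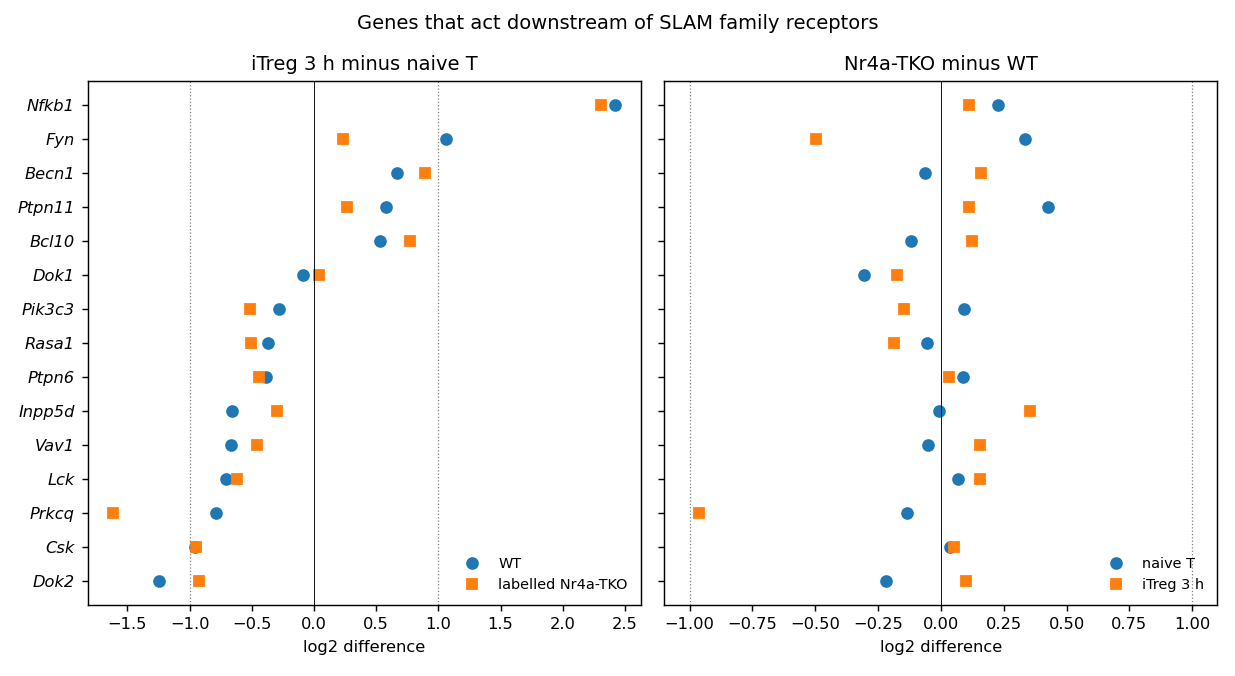
Log2 differences (x axes) of 15 genes that act downstream of SLAM family receptors (y axis), for iTreg 3 h minus naive T (left) and Nr4a-TKO minus WT (right). Circles and squares are the groups named in each panel, and dotted lines mark 2-fold. Nfkb1 rises alike in both genotypes, and the Prkcq square lies at -0.96 in the right panel.

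The 7 receptor genes lie side by side on chromosome 1, with their probes from 173507474 to 173883263 on mm9, a span of 376 kb, while Sh2d1a is on chromosome X. Neighbours on the chromosome moved in different directions. Slamf1, which rose, lies between Cd48 and Cd84, which read lower at 3 h in WT cells. Within the span and 250 kb to each side were 41 further probes with 29 gene names. Of 34 measured in WT cells, 3 were more than 2-fold higher at 3 h and 2 lower, and of 34 in Nr4a-TKO cells 3 were higher and 5 lower, to be read beside the shares over all probes given above. Between the genotypes none of 34 was past 2-fold in naive T cells and 1 of 35 was at 3 h, a probe of the adhesion gene Pvrl4 that was higher by log2 1.20 on the array labelled Nr4a-TKO. The measured probes of other genes nearest Slamf6 also read higher at 3 h under the Nr4a-TKO label, by less than 2-fold, as the plot of the cluster shows. These were the Cd84 probes, a probe of ENSMUST00000097466 between Cd84 and Slamf6 (log2 0.51) and a probe of the planar polarity gene Vangl2 (log2 0.43). In naive T cells the genotypes differed by log2 -0.40 at ENSMUST00000097466, -0.04 at Vangl2 and 0.60, 0.20 and 0.07 at the Cd84 probes.

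**Figure D5:**
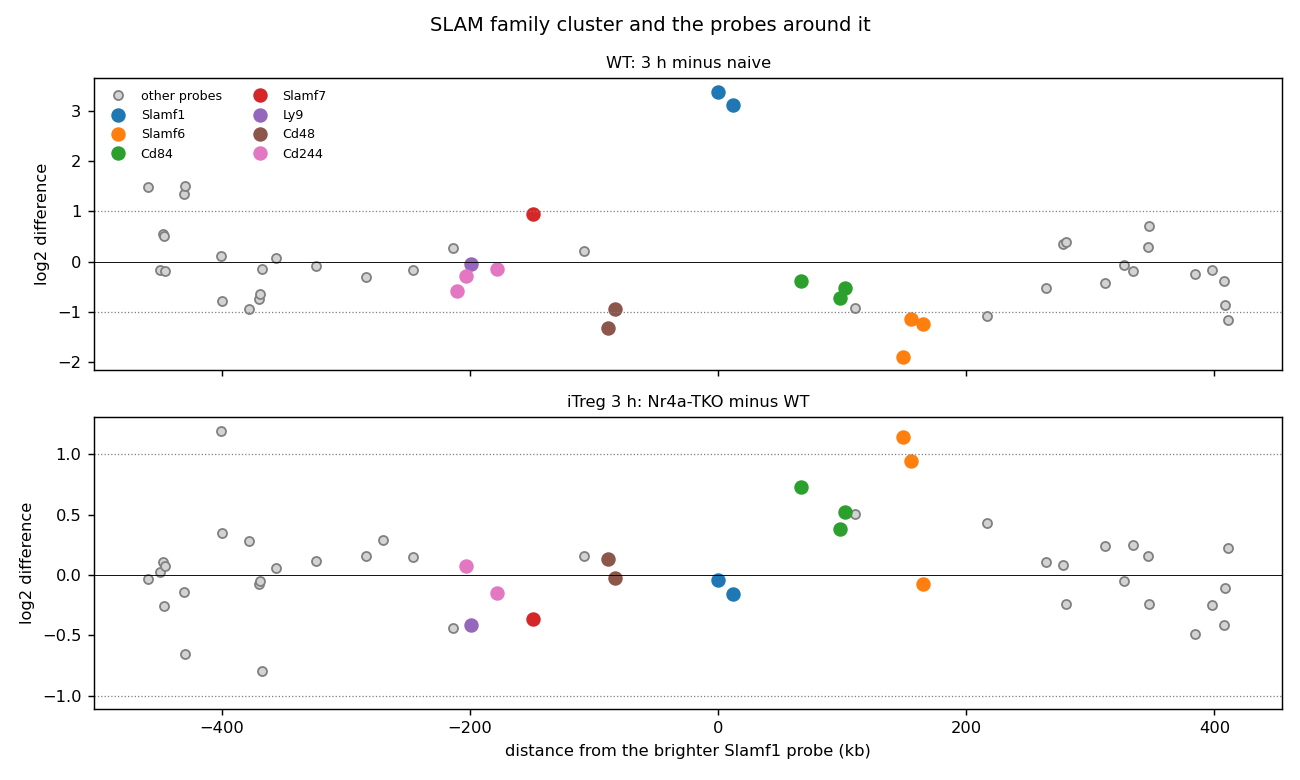
Log2 difference (y axes) of probes in the SLAM family cluster and within 250 kb of it, by distance in kb from the Slamf1 junction probe (x axis), for WT iTreg 3 h minus WT naive T (top) and for Nr4a-TKO minus WT at 3 h (bottom). Coloured points are receptor genes, grey points other probes, and dotted lines mark 2-fold. The Slamf1 points stand above 3 in the top panel, and 2 Slamf6 points lie near 1 in the bottom panel.

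The arrays labelled iTreg 3 h had the profile of stimulated T cells. All 8 activation genes, Cd69 and Egr2 among them, were more than 2-fold higher at 3 h in each genotype. Of 8 naive CD4 T markers, 5 in WT and 6 in Nr4a-TKO cells were more than 2-fold lower, where 8.25% and 7.65% of all genes were. All 8 were above background on every array, as were all 8 B cell markers and 64.9% to 67.6% of all probes, so presence alone does not tell cell types apart. Of the 8 activation genes, 1 was more than 2-fold higher and 1 lower under the Nr4a-TKO label at each stage. The lower one was Tnfrsf9, with log2 differences of -1.86 in naive T cells and -3.60 at 3 h. The higher one was Irf4 in naive T cells (log2 1.25) and Il2 at 3 h (log2 1.20). Nr4a1 read 7.05 in WT naive T, 8.39 in Nr4a-TKO naive T, 11.34 in WT iTreg 3 h and 11.82 in Nr4a-TKO iTreg 3 h cells, and Nr4a2 read 6.24, 6.44, 8.83 and 10.21. So neither was lower under the Nr4a-TKO label. Of the 3 Nr4a3 probes, 2 were lower there at 3 h (log2 -1.86 and -1.47) and 1 was not (0.19). Whether these probes lie in the deleted parts is not given in the sources used here, so they do not check the labels, and each genotype difference above is a difference between arrays so labelled. Markers of memory T cells also differed between the genotypes. At 3 h, 5 of 7 measured markers were higher under the Nr4a-TKO label, Cd44 by log2 1.56 and Cxcr3 by 1.30. In naive T cells 4 of 7 were higher, with Id2 at 1.03, Cxcr3 at -0.59 and S100a4 at -2.17. Of 8 memory markers 7 were above background on every array, and the log2 of their summed level was 11.23 in WT naive T, 11.67 in Nr4a-TKO naive T, 10.97 in WT iTreg 3 h and 11.77 in Nr4a-TKO iTreg 3 h cells, with Ccr2 at background throughout. Foxp3 differed between the genotypes by log2 -1.31 in naive T cells and -1.36 at 3 h, and Ikzf2 by -1.37 and 0.16. Nrp1 differed the other way from Foxp3, by 0.97 and 1.05. All 6 Treg markers were above background on every array, with 2 of 6 higher in naive T cells and 5 of 6 at 3 h under the Nr4a-TKO label. Of those higher at 3 h, only Nrp1 was beyond the spot spread, with Il2ra at 0.05, Ctla4 at 0.06, Ikzf2 at 0.16 and Tnfrsf18 at 0.27. The log2 of the summed level of the Treg markers lay between 10.59 and 11.56. Of 8 myeloid markers, 6 or 7 were above background on each array, with a summed level between 15.08 and 15.28 that came mostly from the bright Itgam probe, and with the macrophage marker Adgre1 at background throughout. Their part in the differences of Slamf6 and Cd84 was not tested.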

How the data were processed

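Total RNA (100 ng) was labelled with Cy3 and hybridised to Agilent mouse arrays, 1 array a group. The authors deposited, for each array, the scanner output of Agilent Feature Extraction 11.5.1.1, with spot and local background intensity, processed intensity and flags, and a table of values on the log2 scale. Set against the scanner files, the latter equals the processed intensity on the log2 scale, less a constant for each array. The methods name RMA, so steps of that kind were run here with limma 3.58.1 in R 4.3.3 (data.table version 1.17.8). Mean intensities were background-corrected by normexp (offset 0) and quantile normalized over the 4 arrays, and log2 values were averaged for each probe over its spots. Left out were control spots and 115 to 160 spots with outlier flags per array, and no spot was saturated. Later steps used Python 3.11.15, pandas 2.3.3, numpy 2.4.6 and matplotlib 3.10.9.

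Between 64.9% and 67.6% of probes were well above background. Dimmer probes were set to at least the floor of their array, which is the smallest value among its well measured probes (log2 3.07 to 3.45), and its difference is then written "at least". No difference was taken where neither array was above background. Genes carry the files' names, with 1 representative probe, the brightest over the 4 arrays. The counting was tested on simulated data with planted changes well past the threshold and only the spot spread as noise. That checks the counting steps and not variation between animals, sorts, cultures or hybridisations. The number of arrays limits the precision, and arrays of 1 per group allow no test. Alternatives were the processed intensity scaled to the 75th percentile, an offset of 50, uncorrected intensity, the authors' deposited log2 values, the average of a gene's probes, only probes above background on both arrays, no filter, and thresholds of 1.5-fold and 3-fold. Genes named in the text are every member, the lists for the SLAM family, its signalling, activation, the Nr4a genes and cell types, genes within 250 kb, and the 5 genes nearest the member with the widest range. The members and lists were chosen with earlier results of these data known.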

Additional observations from a re-analysis of the deposited data

How the results depend on the processing

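No paired analysis was possible because each group had 1 array. The count of genes of the set past the threshold in WT cells between naive T and 3 h was 4, and it was 4 in Nr4a-TKO cells, 0 between genotypes in naive T cells and 1 at 3 h. With a 1.5-fold threshold it was 3 between genotypes in naive T cells and 2 at 3 h. With a 3-fold threshold it was 2 for the Nr4a-TKO change and 0 between genotypes at 3 h. The count at 3 h was also 0 with an offset of 50 and 0 when a gene's probes were averaged. The other counts lay within 1.5 times under each alternative run, and the number of genes whose change differed between genotypes past the threshold was 0 under each. Of 224 single differences recomputed under 7 other ways of processing, 183 moved by less than the spot SD and 41 by more. Of those past 2-fold, 0 changed sign. The count of 183 overstates the stability. The probe that represents each gene was above background on all 4 arrays. So the 32 differences under each of the 2 alternatives for filtering dim probes could not move. The deposited values also nearly repeat the scaled processed intensity, from which they differ by a constant for each array. The most that moved, 15 of 32, did so when a gene's probes were averaged. The smaller folds with an offset of 50 follow from its construction, since it adds a constant to each signal. The cause of the other shifts was not tested. Dim probes, such as the second Slamf1 probe and the Cd244 junction probe, are limited by their signal over background.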
